A study of Mus musculus with 2 samples.

Results

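Open chromatin was examined around 8 genes by which blood stem and progenitor cells are recognised: Kit, Flt3, Cd34, Slamf1, Tek, Procr, Ly6a and Fgd5. Members of the set were the open regions of both replicates that overlapped the body of one of these genes or lay within 50 kb of it, with gene bodies taken from the GENCODE M21 annotation of the mouse build mm10. An open region is 1 peak of a deposited list, or several peaks of it that overlap, and a shared region is one present in both replicates. The 8 windows, of the windows of 21755 protein-coding genes, held 84 of 79800 regions of replicate 1, 87 of 81707 regions of replicate 2 and 74 of 69539 shared regions. No window overlapped another. The assay was ATAC-seq, which marks accessible DNA by where a transposase can insert adapters, and the cells were primary megakaryocytes, the large cells that shed platelets. The single group held 2 biological replicates of 50000 cells each, from adult male C57BL/6J mice aged 5 to 6 weeks, and the labels name no treatment and no genetic change. The replicates are separate biosamples under 1 donor record, so the spread between animals cannot be told apart from that between libraries. As no second cell type was profiled, whether any value below is particular to megakaryocytes was not tested. The files hold no read counts, so depth is unknown, and a region absent from a list was not detected rather than shown to be closed.

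Kit, Flt3 and Tek encode receptor tyrosine kinases, which on binding stem cell factor, FLT3 ligand and the angiopoietins pass survival and growth signals through adaptors, PI3-kinase and STAT5 proteins. Cd34 encodes a sialomucin of progenitors and blood vessels, Slamf1 a self-binding receptor of the SLAM family that stem cells and megakaryocyte progenitors carry, Procr the endothelial receptor for protein C, and Ly6a the stem cell antigen of the Ly6 family. Fgd5 encodes a guanine nucleotide exchange factor for small GTPases inside the cell and is known as a reporter gene of stem cells, so the name surface receptor gene does not apply to it. In blood formation KIT is lost as megakaryocytes mature, while FLT3 marks multipotent and lymphoid progenitors and dendritic cell precursors.

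The 8 genes were not alike in these megakaryocytes. Kit, Flt3, Cd34 and Procr had a shared region at their 5′ end, Fgd5 had one only at an internal start, and Slamf1, Tek and Ly6a had none at any annotated start. The number of shared regions in a window ran from 1 at Tek to 16 at Flt3. Fold enrichment, the authors' ratio of signal in a peak to its local background, was highest near Procr, Slamf1, Cd34 and Fgd5, and in each of these 4 windows the strongest region lay outside the gene body. Values are means of the replicates ± SD (n = 2), and the SD covers only the spread between these samples.

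Sequences of the strongest distal regions are shown first because they differ in the motifs they hold. Distal means that no part of the region lies within 1 kb of any annotated transcript start. Each window is the stretch of 100 bases to each side of the summit, with the summit base, read 5′ to 3′ from the mm10 (GRCm38) reference. Capitals mark matches, on either strand, to the motif of GATA factors (GATAA), RUNX factors (TGTGGT), ETS factors (AGGAAG), the E-box (CAGNTG), AP-1 and NF-E2 (TGANTCA) or the 10-base core of the CTCF motif. The CTCF core was added after the sequences had been seen.
Kit, chr5:75615700-75615900, plus strand: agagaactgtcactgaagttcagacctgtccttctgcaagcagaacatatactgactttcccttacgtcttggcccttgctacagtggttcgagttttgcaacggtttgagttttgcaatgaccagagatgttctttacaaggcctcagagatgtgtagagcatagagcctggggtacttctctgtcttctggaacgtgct
Flt3, chr5:147363121-147363321, plus strand: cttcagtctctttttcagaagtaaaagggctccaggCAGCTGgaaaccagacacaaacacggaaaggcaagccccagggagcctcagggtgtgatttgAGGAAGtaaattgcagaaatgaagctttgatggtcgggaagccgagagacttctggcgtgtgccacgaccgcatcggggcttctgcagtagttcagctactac
Tek, chr4:94768732-94768932, plus strand: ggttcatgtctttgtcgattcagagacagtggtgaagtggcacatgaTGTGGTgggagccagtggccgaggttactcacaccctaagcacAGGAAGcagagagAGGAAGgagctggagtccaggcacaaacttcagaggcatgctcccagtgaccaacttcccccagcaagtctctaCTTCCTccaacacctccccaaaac
Slamf1, chr1:171815879-171816079, plus strand: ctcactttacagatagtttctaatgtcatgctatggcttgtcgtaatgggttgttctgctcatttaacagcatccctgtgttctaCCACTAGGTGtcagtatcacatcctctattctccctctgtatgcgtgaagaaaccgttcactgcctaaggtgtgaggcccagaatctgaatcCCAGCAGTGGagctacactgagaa
Ly6a, chr15:74968313-74968513, plus strand: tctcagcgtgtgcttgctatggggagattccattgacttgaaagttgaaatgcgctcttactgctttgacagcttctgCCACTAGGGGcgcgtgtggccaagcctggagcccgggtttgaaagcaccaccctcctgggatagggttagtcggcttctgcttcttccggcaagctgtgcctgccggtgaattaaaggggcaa
Fgd5, chr6:92101094-92101294, plus strand: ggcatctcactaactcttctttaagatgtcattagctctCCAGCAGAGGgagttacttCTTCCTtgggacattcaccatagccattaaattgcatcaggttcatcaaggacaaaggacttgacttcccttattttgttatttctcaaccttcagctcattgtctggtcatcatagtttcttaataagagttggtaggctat
The window of Slamf1 held 2 matches to the CTCF core, and the windows of Ly6a and Fgd5 held 1 each, that of Fgd5 together with 1 ETS match. The strongest distal region of Procr, not printed, also held 1 CTCF core. In the Flt3 window there were 1 ETS match and 1 E-box, and in the Tek window 1 RUNX and 3 ETS matches. None of the 6 motifs had a match in the window of Kit, nor in that of Cd34, which is not printed. A match is a run of letters and does not show that a factor is bound.

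The stretches just upstream of the 5′ ends are shown because their CpG content differed over a wide range. Each is the 100 bases before the 5′ end of the gene, written 5′ to 3′ along the direction of transcription, with CpG dinucleotides in capitals.
Kit, chr5:75574816-75574915, plus strand: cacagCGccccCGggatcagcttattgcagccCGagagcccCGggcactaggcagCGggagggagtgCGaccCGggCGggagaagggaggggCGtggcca
Fgd5, chr6:91978778-91978877, plus strand: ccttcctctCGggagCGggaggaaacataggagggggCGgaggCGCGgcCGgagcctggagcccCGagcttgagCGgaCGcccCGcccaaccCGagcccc
Tek, chr4:94739189-94739288, plus strand: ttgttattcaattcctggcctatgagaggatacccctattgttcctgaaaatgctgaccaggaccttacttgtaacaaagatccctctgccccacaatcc
Ly6a, chr15:74998032-74998131, minus strand: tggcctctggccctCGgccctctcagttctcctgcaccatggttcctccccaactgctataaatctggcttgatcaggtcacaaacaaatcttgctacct
These 100 bases held 9 CpG at Kit and 11 at Fgd5, against 0 at Tek and 1 at Ly6a. Over the 300 bases from 250 before to 50 after the 5′ end, Fgd5 held 24 CpG, Kit 22, Flt3 18, Procr 14, Cd34 7, Slamf1 4, Tek 3 and Ly6a 2, beside a median of 11 over all protein-coding genes. The promoter sequences of the 8 genes in the RefSeq promoter table were identical to the genome sequence used, at the positions given in that table. The 4 genes with a region at the 5′ end thus ranged from 7 to 22, and the 3 genes with none at any start held the fewest. Fgd5 had the most CpG of the 8 and no shared region at its 5′ end. Over all protein-coding genes, the share with a shared region within 500 bp of the 5′ end was 9.37% at 0 to 2 CpG, 32.4% at 3 to 9, 75.8% at 10 to 19 and 86.0% at 20 or more. By these classes Cd34 was open where most genes of its class were not, and Fgd5 was not open where most were.

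Of the 8 genes, 5 had a shared region within 500 bp of any of their transcript starts, a rule met by 59.8% of all protein-coding genes. At the 5′ end alone it was 4 of 8, beside 54.4% of all genes. Both shares are close to those of all genes and are no result about these 8 genes.

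The Kit start was covered by a region of 1381 bp made of 4 peaks in each replicate (chr5:75574637-75576017), with a fold enrichment of 8.21 in replicate 1 and 6.98 in replicate 2 (7.59 ± 0.871). At Flt3 the region over exon 1 (chr5:147399973-147400766) had 14.7 in replicate 1 and 13.7 in replicate 2 (14.2 ± 0.709), a value above those of 92.0% of all shared regions. The Flt3 start was the strongest of the 4 starts in both replicates, and the other 3 lay close together. With 50% reciprocal overlap between the replicates in place of 1 bp, the Kit start no longer counted as shared.

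At Cd34 the region over exon 1 (chr1:194938607-194939362) had 8.32 and 8.20 (8.26 ± 0.0816). The region at Procr (chr2:155751046-155751732) had 7.54 and 7.64 (7.59 ± 0.0697), with its summit in intron 1, 477 bp from the 5′ end. It was on neither of the shorter lists that the authors made per replicate by IDR, the irreproducible discovery rate, which measures how well the rank of a peak repeats. Kit, Flt3 and Cd34 were on both of those lists at their starts. Fold enrichment therefore did not separate the Kit, Cd34 and Procr starts beyond the spread of the replicates at Kit.

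At Fgd5 the only start with a shared region was that of an annotated retained-intron transcript 88.6 kb inside the gene (chr6:92067069-92067754), in intron 14, with 13.1 in replicate 1 and 13.4 in replicate 2 (13.2 ± 0.202). Near the 5′ end itself, replicate 2 alone had a region 0.920 kb inside the gene with a fold enrichment of 4.85. The list of peaks called on the pooled samples added one 0.178 kb inside with 3.03. Signal at the Fgd5 5′ end was thus weak and seen in 1 replicate or on pooling only. Near Ly6a, replicate 1 alone had a region 1.90 kb upstream of the 5′ end, with 4.15. Slamf1 and Tek had no region of a single replicate anywhere in their windows.

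**Figure D1:**
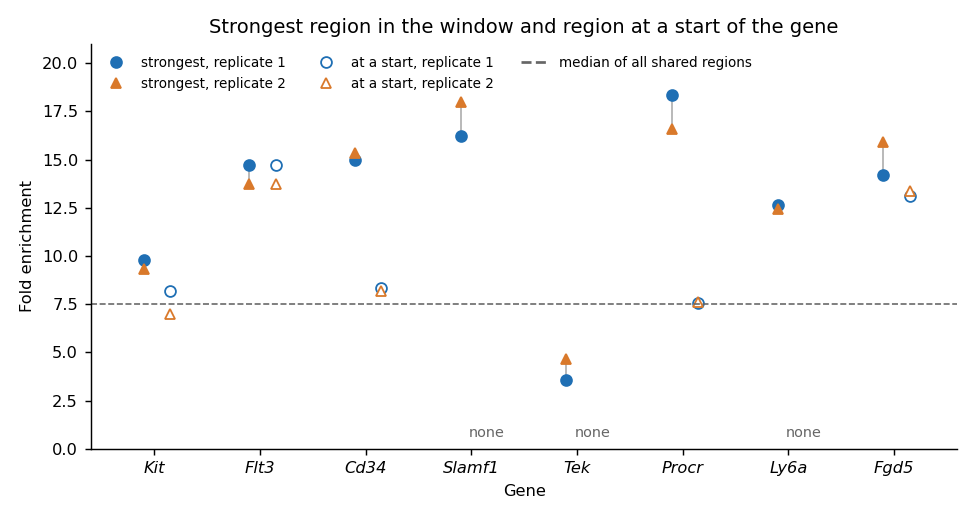
Fold enrichment (vertical axis, a ratio) in replicate 1 (circles) and replicate 2 (triangles) for each gene, filled for the strongest shared region of its window and open for the region at one of its own starts, with the median of all shared regions (7.52) dashed. The start of Flt3 and the internal start of Fgd5 lie above 13, the starts of Kit, Cd34 and Procr between 6.98 and 8.32, and Slamf1, Tek and Ly6a have none.

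The 3 receptor kinase genes differed most in how many regions surrounded them. Flt3 had 16 shared regions, 11 of them distal, and Kit had 9, 8 of them distal, while Tek had 1. Window lengths differ with the gene, from 103 kb at Ly6a to 236 kb at Tek. Per 100 kb of window the values were 9.43 for Flt3, 4.95 for Kit and 0.424 for Tek, beside a median of 4.93 over all protein-coding genes.

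At Kit, which lies on chromosome 5 from 75574916 to 75656722 on the plus strand, 5 regions were inside the gene, 2 upstream and 2 downstream. The strongest was in intron 5, 40.9 kb from the 5′ end (chr5:75615646-75616098), with 9.77 in replicate 1 and 9.33 in replicate 2 (9.55 ± 0.316). It exceeded the Kit start in both replicates, although only the list of replicate 1 kept it under the IDR threshold. A region 96.4 kb from the 5′ end, beyond the 3′ end of the gene (chr5:75671102-75671828), had 6.67 and 7.55 (7.11 ± 0.620). With the start, it was 1 of the 2 Kit regions on both IDR lists.

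The region in intron 1 of Kit, 29.5 kb from the 5′ end (chr5:75604290-75604881), had 5.98 and 8.01 (6.99 ± 1.43), so the replicates were further apart there than at the start. The regions 17.4 kb and 7.73 kb upstream had 5.44 ± 1.10 and 4.41 ± 0.365. Introns 6 and 7 held one each, with 3.98 ± 0.187 and 3.91 ± 0.192, and the last, 105 kb from the 5′ end, had 4.38 ± 1.17. Kit was thus surrounded by regions of low fold enrichment, and its median of 5.44 was the lowest of the 7 genes with more than 1 region. The coding start nearest to each of the 9 regions was that of Kit itself. Within 100 kb of the gene the highest value rose to 14.8, from a region outside the 50 kb window.

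At Flt3, on the minus strand of chromosome 5 from 147330741 to 147400489, 8 regions were inside the gene, 5 upstream and 3 downstream, and 13 of the 16 were on both IDR lists. The strongest distal one was in intron 9, 37.3 kb from the 5′ end (chr5:147362662-147363504), with 12.9 in replicate 1 and 13.5 in replicate 2 (13.2 ± 0.470). A region 18.0 kb upstream at the start of the lincRNA D5Ertd605e (chr5:147418208-147419126) had 14.3 and 13.2 (13.8 ± 0.822). These 2 regions and the Flt3 start were the 3 strongest of the window, and the replicate values at D5Ertd605e overlapped those of both others.

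The other regions inside Flt3 were spread over its introns. Towards the 3′ end, intron 23 held one with 10.1 and 12.6 (11.3 ± 1.78) and intron 20 one with 10.5 and 11.3 (10.9 ± 0.609). Introns 15 and 10 had 7.65 ± 0.479 and 5.95 ± 0.997, and the 2 regions of intron 1 had 9.07 ± 0.0949 and 5.43 ± 0.0433. Downstream of the gene, at 76.8, 80.6 and 107 kb from the 5′ end, fold enrichments were 9.95 ± 0.449, 8.53 ± 0.758 and 11.9 ± 0.561, each on both IDR lists. The 5 upstream regions ranged from 3.22 to 13.8 and included both regions within 1 kb of the start of Pan3, a subunit of a deadenylase, with 9.91 ± 0.581 and 6.30 ± 0.000304. The nearest coding start was that of Flt3 for 5 of the 16 regions, of Urad, an enzyme of urate breakdown, for 6, of Pan3 for 4 and of the homeobox gene Cdx2 for 1.

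At Tek, on the plus strand of chromosome 4 from 94739289 to 94874976, the window of 236 kb held a single shared region, in intron 1, 29.5 kb from the 5′ end (chr4:94768729-94768940). Its fold enrichment was 3.55 in replicate 1 and 4.66 in replicate 2 (4.11 ± 0.784), above those of only 7.61% of all shared regions. It was on neither IDR list, and no region of a single replicate and none from pooling alone was added. With peaks of at least 4-fold enrichment, or with either kind of IDR list, Tek had none.

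**Figure D2:**
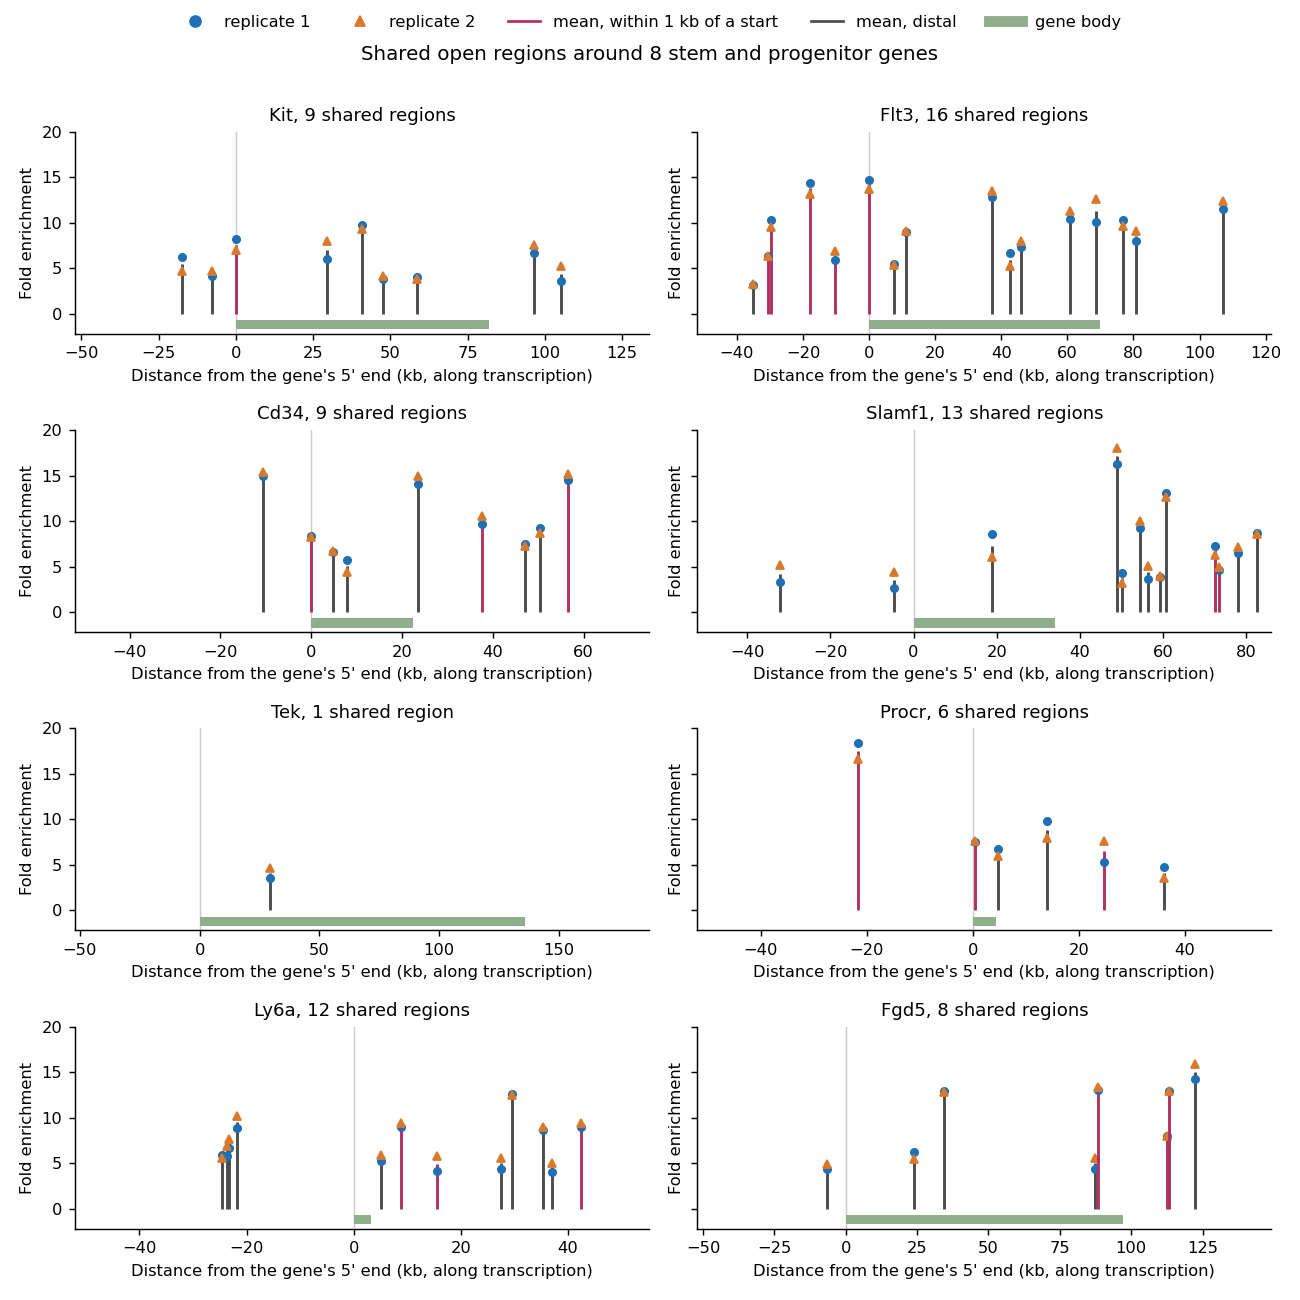
Shared regions around each gene by distance of the summit from the 5′ end (horizontal axis, kb along transcription; the bar is the gene body) and fold enrichment (vertical axis, a ratio) in replicate 1 (circles) and replicate 2 (triangles), with a line to the mean, red within 1 kb of any transcript start and grey for distal regions. Flt3 shows 16 regions spread over its window, Tek 1, and Slamf1 and Ly6a most of theirs outside the gene.

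Among the surface marker genes without a kinase, Cd34 stood out by strong regions on both sides of the gene. Cd34 lies on the plus strand of chromosome 1 from 194938819 to 194961279, and 7 of its 9 regions were on both IDR lists. The strongest was 10.7 kb upstream (chr1:194927688-194928436), with 14.99 in replicate 1 and 15.4 in replicate 2 (15.2 ± 0.264). It exceeded the Cd34 start, at 8.26, in both replicates. Just past the 3′ end, 23.5 kb from the 5′ end (chr1:194962034-194962687), a region had 14.0 and 14.98 (14.5 ± 0.669).

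Further downstream of Cd34, the region at the start of the lincRNA Gm32250, 56.6 kb from the 5′ end (chr1:194994848-194995676), had 14.5 and 15.2 (14.8 ± 0.504). A region of 1733 bp over the starts of the non-coding genes A330023F24Rik and Gm16897, 37.5 kb from the 5′ end (chr1:194976018-194977750), had 9.62 and 10.5 (10.1 ± 0.645). It was the widest of the 74 regions, merged from 6 peaks in replicate 1 and 5 in replicate 2. The regions at 47.2 and 50.4 kb had 7.37 ± 0.211 and 8.93 ± 0.360, and the 2 in intron 1 had 6.66 ± 0.155 and 5.08 ± 0.943. The nearest coding start of each of the 9 regions was that of Cd34, but 2 of the 3 strongest stood nearer to a non-coding gene.

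Slamf1, on the plus strand of chromosome 1 from 171767127 to 171801184, had 13 shared regions, of which 1 lay inside the gene and 10 lay downstream. Its count was 5 with the IDR lists, 8 with the conservative list of the pooled samples or with peaks of at least 4-fold, 4 within 20 kb and 3 by nearest coding start. The strongest was 48.9 kb from the 5′ end, past the 3′ end (chr1:171815624-171816363), with 16.3 in replicate 1 and 18.0 in replicate 2 (17.1 ± 1.23), above 97.9% of all shared regions. Next came regions at 60.8 kb, with 13.1 and 12.7 (12.9 ± 0.281), and at 54.4 kb, with 9.24 and 10.03 (9.63 ± 0.558). All 10 downstream regions had the start of Cd84, the neighbouring SLAM family receptor gene, as their nearest coding start.

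Inside Slamf1, in intron 3 (chr1:171785930-171786177), fold enrichment was 8.59 in replicate 1 and 6.04 in replicate 2 (7.31 ± 1.81), and only replicate 1 kept the region on its IDR list. The regions 32.1 kb and 4.80 kb upstream had 4.24 ± 1.38 and 3.53 ± 1.22, and the latter had the largest log2 ratio of replicate 2 to replicate 1 of the 74 regions, at 0.72. For the region in intron 3 that ratio was −0.51, the lowest of the 74. The 3 regions nearest to the Slamf1 start were thus also among those in which the replicates differed most. The other 7 downstream regions ranged from 3.75 to 8.63, among them 6.77 ± 0.646 at the Cd84 start.

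Procr, a short gene on the plus strand of chromosome 2 from 155751117 to 155755471, had 6 shared regions. The strongest, with 18.4 in replicate 1 and 16.6 in replicate 2 (17.5 ± 1.24), was 21.7 kb upstream at the start of Edem2 (chr2:155729162-155729643), a gene of endoplasmic reticulum quality control. It had the highest mean of the 74 regions, and it was the only Procr-window region on both IDR lists. The strongest distal region, 14.1 kb from the 5′ end (chr2:155765058-155765369), had 9.77 and 7.96 (8.86 ± 1.29). Regions at 4.81, 24.7 and 36.0 kb had 6.36 ± 0.559, 6.48 ± 1.62 and 4.15 ± 0.829, and the start nearest to 3 of the 6 regions was that of the metalloproteinase gene Mmp24. Without the region at Edem2, the Procr window held no value above 10.

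Ly6a, on the minus strand of chromosome 15 from 74994877 to 74998031, had no shared region inside the gene, and 12 within 50 kb, with 8 downstream and 4 upstream. The strongest was 29.6 kb from the 5′ end (chr15:74968232-74968718), with 12.7 in replicate 1 and 12.5 in replicate 2 (12.6 ± 0.143). A region 21.7 kb upstream (chr15:75019490-75019856) had 8.92 and 10.2 (9.57 ± 0.911), and one at 42.4 kb, at the start of the family member Ly6e, had 9.02 and 9.44 (9.23 ± 0.291). A broad region at 8.84 kb, over the starts of Gm37042 and the pseudogene Gm8000, had 8.96 and 9.47 (9.22 ± 0.358), and one at 35.2 kb had 8.85 ± 0.229.

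The other 7 regions of the Ly6a window ranged from 4.59 to 7.17. Ly6 genes are a multigene family with near-identical stretches, and 6 of the 12 regions had 1 to 5 other copies in the genome at 90% identity or more over at least 50% of their length, with a best identity of 91.1% to 100%. They were the 4 upstream regions and those at 8.84 and 15.5 kb. How the authors placed reads that match several copies is not given in the sources used here, so the fold enrichment of these 6 is uncertain. None of the 62 regions of the other 7 windows had such a copy. Copies were sought for shared regions only, so those of the Ly6a start and gene body are unknown. Why no shared region was detected there was not tested.

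Fgd5, on the plus strand of chromosome 6 from 91978878 to 92076004, had 8 shared regions, 4 of them inside the gene, and the highest median of the 8 windows, at 10.5. The strongest was 122 kb from the 5′ end in the neighbouring gene Nr2c2, an orphan nuclear receptor (chr6:92100970-92101501), with 14.2 in replicate 1 and 15.9 in replicate 2 (15.1 ± 1.20). The strongest distal region inside Fgd5, in intron 2, 34.3 kb from the 5′ end (chr6:92012493-92013519), had 13.0 and 12.8 (12.9 ± 0.0777). Both were on the IDR lists of both replicates. The 2 regions at the Nr2c2 start had 12.9 ± 0.0414 and 8.02 ± 0.0367. The rest, at 6.58 kb upstream and at 23.9 and 87.4 kb inside, had 4.65 ± 0.410, 5.85 ± 0.519 and 5.01 ± 0.872. The nearest coding start was that of Nr2c2 for 5 of the 8 regions and that of Fgd5 for 3.

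Set beside all protein-coding genes, these windows were not unusual in number. A count of at least 7 shared regions, the median of all genes, was reached by 6 of the 8 windows, beside 51.6% of all genes. The median of the 8 windows was 9 regions and 6.55 per 100 kb, where all genes had medians of 7 and 4.93. As a mid-rank percentile among all genes, the number was 91.9 for Flt3, 83.4 for Slamf1, 79.3 for Ly6a, 63.9 for Kit and for Cd34, 57.9 for Fgd5, 45.1 for Procr and 17.4 for Tek. Per 100 kb of window the order changed, with Ly6a first at 11.6 regions (percentile 90.04), then Slamf1 at 9.70, Flt3 at 9.43, Cd34 at 7.35, Procr at 5.75, Kit at 4.95, Fgd5 at 4.06 and Tek at 0.424 (15.6). The place of Ly6a rests on 12 regions, 6 of them with copies elsewhere in the genome, and its count was 5 with the IDR lists and 3 within 20 kb. Of the 74 regions, 23 lay inside a gene, 16 upstream and 35 downstream, and 37 had the start of 1 of the 8 genes as their nearest coding start.

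**Figure D3:**
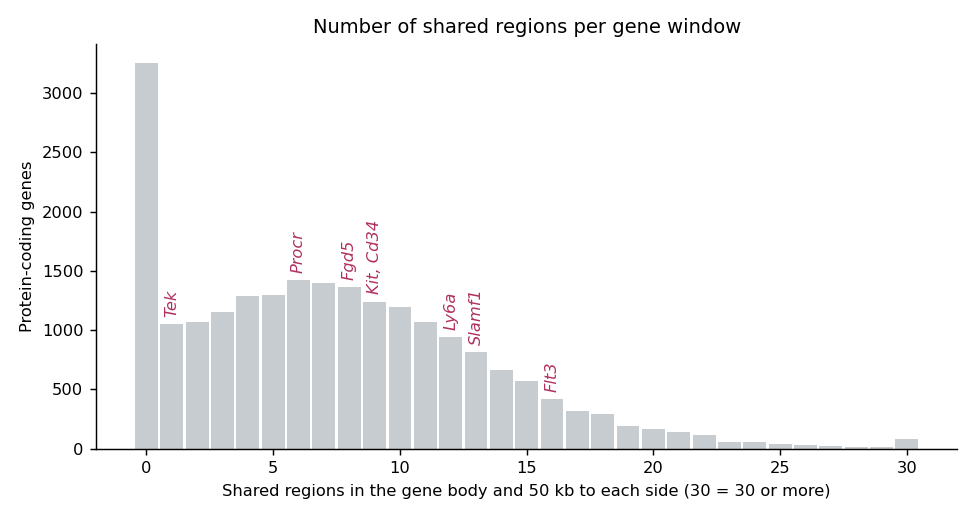
Number of protein-coding genes (vertical axis) by the number of shared regions in the gene body and 50 kb to each side (horizontal axis, 30 standing for 30 or more), with the 8 genes named above the bar they belong to. Tek stands at 1 and Flt3 at 16, and the other 6 lie between 6 and 13, of which only Procr is below the median of 7.

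Strength, too, was close to that of the whole series. The median fold enrichment was 7.34 over the 74 regions and 7.52 over all shared regions. It was 8.74 over the 20 regions within 1 kb of a transcript start, beside 8.92 over all such regions, and 6.92 over the 54 distal ones, beside 7.12. Regions within 1 kb of a start made up 27.0% of the 74 and 29.9% of all shared regions. A mean of at least 10 was reached by 18 of the 74 (24.3%), beside 28.8% of all. Of these 18, Flt3 had 6, Cd34 4, Fgd5 4, Slamf1 2, Procr 1 and Ly6a 1, and neither Kit nor Tek had any. On the IDR lists of both replicates were 38 (51.4%), beside 53.3% of all shared regions, 11 were on 1 list and 25 on neither.

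The replicates matched about as well around these genes as elsewhere. Of 94 regions of either replicate in the windows, 74 (78.7%) were in both, beside 77.9% of all regions. The 20 found once, 9 in replicate 1 and 11 in replicate 2, had fold enrichments of 2.51 to 6.04, and 9 of them were near Flt3. Across the 74 shared regions the median log2 ratio (replicate 2 over replicate 1) was 0.06 with an SD of 0.25, and the corresponding values of all shared regions were 0.05 and 0.24. The ratio lay within 1.5-fold for 72 regions (97.3%), beside 96.4% of all, and 45 (60.8%) were higher in replicate 2, beside 59.0% of all. As a description across regions, which share libraries and are not replicates, Pearson's r of the log2 values was 0.930 and the rank correlation of Spearman 0.943.

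**Figure D4:**
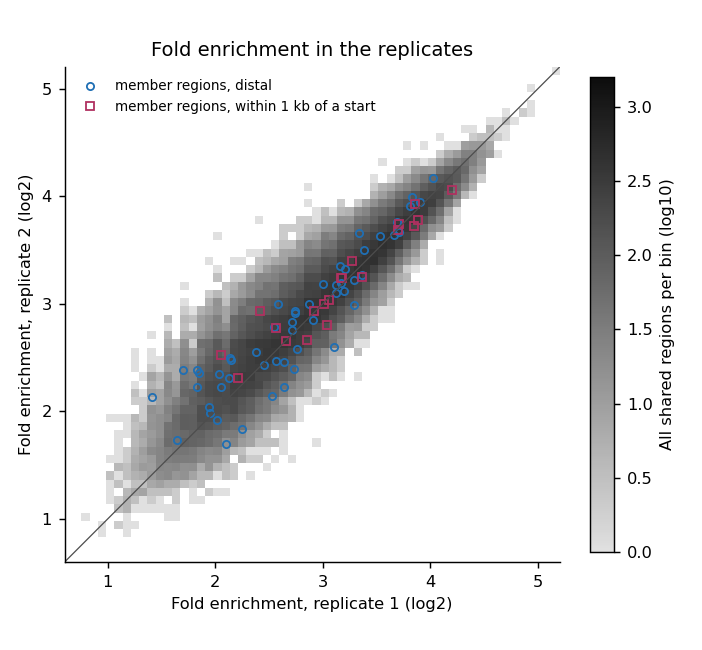
Log2 fold enrichment of the 74 regions in replicate 1 (horizontal axis) and replicate 2 (vertical axis), as circles for distal regions and squares for regions within 1 kb of a transcript start, over all 69539 shared regions in grey (log10 of the number per bin). The points follow the diagonal, and 72 of 74 lie within 1.5-fold.

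Motifs in the 54 distal regions were counted in windows of the same length as the sequences above, and set beside all 48720 distal shared regions. The ETS motif was the most frequent, in 29 (53.7%), beside 51.2% of all distal regions. RUNX followed the background, with 14 (25.9%) beside 25.6%, and the GATA motif was in 9 (16.7%) beside 19.3%. With the IDR lists the GATA shares were 8.33% and 17.0%, and within 150 bp they were 33.3% and 30.2%. Among the settings for which a share of all distal regions was computed, that of the 8 genes was higher only within 150 bp. The E-box was in 20 (37.0%), beside 44.9%. GATA, RUNX and ETS factors are the families known to act together in megakaryocyte genes. Only 1 of the 54 held a match of all 3, a region 32.1 kb upstream of Slamf1, which is 1.85% beside 2.49% of all.

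Less frequent motifs gave small counts. AP-1 and NF-E2, the latter a factor of platelet formation, had matches in 4 (7.41%), beside 10.7%, and the STAT motif (TTCNNNGAA) in 3 (5.56%), beside 5.80%. The joined motif of a GATA site and part of an E-box, each match of which also holds a GATA match, was in 0 of 54, beside 0.335% of all. The GC box (GGGCGG) was in 0 of 54, beside 7.16%, and in 9 of the 20 regions near a start, beside 44.5% of all of those. By gene, ETS matches were in 5 of the 8 distal regions of Kit, 5 of 6 of Cd34, 7 of 11 of Slamf1 and 4 of 11 of Flt3. RUNX matches were in 5 of 11 of Slamf1 and in none of Cd34. GATA matches were in 2 regions each of Cd34, Slamf1 and Ly6a, 1 each of Kit, Flt3 and Fgd5, and none of Tek and Procr.

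The CTCF core was in 18 of the 54 (33.3%), beside 26.0% of all distal regions, with 5 at Flt3, 3 each at Cd34, Slamf1 and Ly6a, 2 each at Procr and Fgd5 and none at Kit and Tek. It was found in 2 of the 15 distal regions under 5-fold, 10 of the 28 from 5 to 10-fold and 6 of the 11 at 10-fold or more, where all distal regions had 18.2%, 27.3% and 29.6%. GATA matches numbered 4, 5 and 0 in the same classes, beside 21.6%, 19.8% and 16.0%. The RUNX motif had 7, 7 and 0, beside 26.5%, 25.1% and 26.2% of all, and ETS 11, 14 and 4, beside 51.2%, 50.4% and 53.2%. The classes are small, and no test was made of them. The CTCF core was taken up because it was seen in the strongest windows. Those of Slamf1, Ly6a and Fgd5 are 3 of the 6 matches at 10-fold or more, and they and that of Procr are among the 18. Its rise with fold and its share of 33.3% beside 26.0% thus partly restate that choice.

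**Figure D5:**
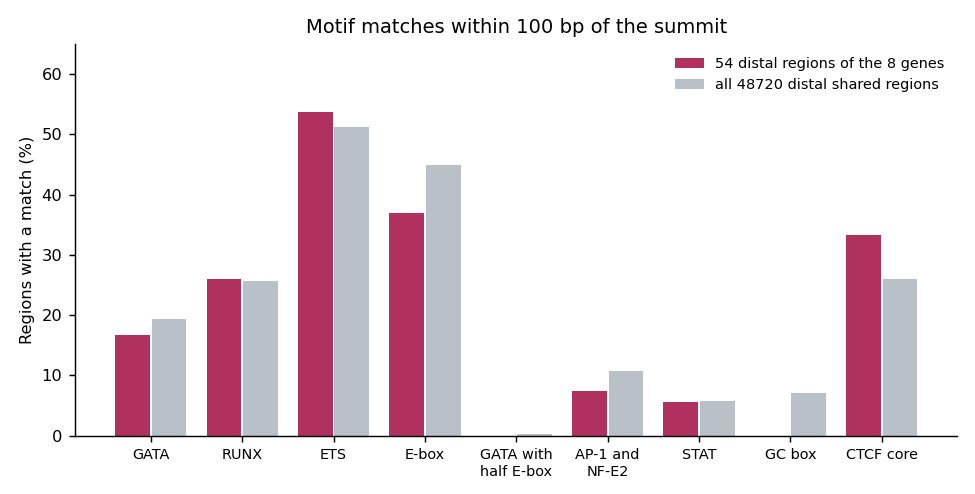
Share of regions (vertical axis, percent) with at least 1 match of each motif within 100 bp of the summit, for the 54 distal regions of the 8 genes (red) and for all 48720 distal shared regions (grey); bars carry no error because each is a share of 1 set. ETS is highest in both sets, at 53.7% and 51.2%, and the CTCF core stands at 33.3% and 26.0%. The CTCF core was added after the strongest sequences had been seen, so its difference partly restates that choice.

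Ligands and partners of the receptors were open in part. Of 15 such genes, 10 had a shared region at a start, a share (66.7%) near the 59.8% of all protein-coding genes. Kitl, which encodes the KIT ligand, had 6.88 in replicate 1 and 4.28 in replicate 2 (5.58 ± 1.84), Flt3l, for the FLT3 ligand, 12.5 and 12.1 (12.3 ± 0.240), and Angpt1, for the TEK ligand made by megakaryocytes among other cells, 4.39 and 4.99 (4.69 ± 0.423). Angpt2, the other TEK ligand, and Tie1, the co-receptor of TEK, had none. Highest in the list were the thrombin receptor F2r, with 13.6 ± 1.20, Flt3l, and the SLAM adaptor Sh2d1b1, with 11.1 ± 0.267. A start was open at both gene and ligand for Kit and Flt3, and at the ligand Angpt1 but not at the receptor for Tek.

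Of the 17 genes for signalling below KIT, FLT3 and TEK, all 17 had a shared region at a start, beside 59.8% of all protein-coding genes, with a median of 18 shared regions per window, beside 7 for all genes. The highest were the adaptor Grb2 with 21.2 ± 0.375, the PI3-kinase subunit Pik3cd with 15.1 ± 0.224 and the transcription factor Stat5a with 14.5 ± 0.543, each at a start other than the 5′ end. Of 17 genes listed as other surface and reporter markers of stem cells, 14 (82.4%) had a shared region at a start. The highest were Hoxb5 with 11.9 ± 1.57, the catenin-like gene Ctnnal1 with 11.2 ± 0.490 and Il7r with 10.01 ± 0.226. Jam3 and Ly6c1 were among those with none. Il7r is also on the list of dendritic and early lymphoid markers, so the 82.4% is not a share of genes particular to stem cells. Differences between these lists and the 8 genes were not tested.

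Megakaryocyte markers were open at a start in 4 of 12 (33.3%), below the 59.8% of all protein-coding genes, as were the 3 other marker lists given here. Itga2b at 13.5 ± 0.584, Vwf at 9.39 ± 0.348 and Itgb3 at 7.62 ± 0.655 were highest, the values of Itga2b and Vwf at a start other than the 5′ end. Gp1ba, Gp1bb, Gp5, Gp6, Gp9, Ppbp and Selp were among those with none. By mean fold enrichment, the start of Flt3, at 14.2, was above that of every listed marker of the labelled cell type. Its replicate values, 14.7 and 13.7, overlapped those of Itga2b, 13.9 and 13.0. The internal start of Fgd5, 88.6 kb from its 5′ end, had 13.2, close to Itga2b, while the 5′ end of Fgd5 had no shared region. Listed markers of other cells that express the 8 genes were also open at a start in part. Whether any of these genes is particular to its listed cell type was not tested. Beside Kit, 3 of 8 mast cell markers had a region at a start (Mitf 16.0 ± 0.0344, Hdc 9.06 ± 0.160, Fcer1a 8.08 ± 0.192), and Cpa3, Ms4a2, Cma1, Mcpt4 and Mrgprb2 had none. Beside Tek, Cd34, Procr and Fgd5, 3 of 8 endothelial markers had one (Cdh5 14.5 ± 0.0816, Pecam1 8.26 ± 0.112, Sox17 7.03 ± 1.99). Of these, Pecam1 is shared with other cell types. That of Cdh5 was at a start other than the 5′ end, where Cdh5 had none. Kdr, Emcn, Cldn5, Ptprb and Nos3 had none at any start. Beside Flt3, 4 of 8 dendritic and early lymphoid markers had one, with Vpreb1 at 18.0 ± 0.899, Il7r at 10.01 ± 0.226 and Siglech at 6.95 ± 0.994 highest, and Clec9a, Xcr1, Dntt and Rag1 had none. The part of such cells in the regions near the 8 genes was not tested.

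The nearest comparisons within the series were the 2 fibrinogen receptor genes and 3 progenitor factor genes. Itga2b had 10 and Itgb3 18 shared regions in the same kind of window. Myb had 19, Meis1 10 and Mecom 8, and Mecom had no shared region at a start. In number alone, Kit and Cd34, with 9 each, were near Itga2b, Meis1 and Mecom, and Flt3, with 16, was near Itgb3 and Myb. The windows differ in length. Per 100 kb, the values were 4.95 for Kit, 7.35 for Cd34 and 9.43 for Flt3. They were 8.56 for Itga2b, 11.1 for Itgb3, 14.0 for Myb, 4.18 for Meis1 and 1.15 for Mecom. Mecom was thus sparser than Kit and Cd34, and Myb denser than Flt3. No difference between these groups of genes was tested.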

How the data were processed

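ATAC-seq peak lists of 2 megakaryocyte samples were used, which formed 1 group. Per the labels, peaks were placed on mm10. Which aligner and caller made them is not given in the sources used here. The lists used were, for each sample, the deposited pseudoreplicated and IDR-thresholded peaks, and for the series the deposited replicated and conservative IDR peaks called on pooled samples. The files have no headers, so the deposited columns were read by the standard peak format: column 7 as fold enrichment over local background (a ratio), column 8 as −log10 p-value, column 9 as −log10 of the q-value, which was not used further, and column 10 as summit. The largest p-value in a sample's deposited list was 0.00997 in both replicates. No scaling between samples is stated, and values were compared as the authors deposited them. No read counts were used, so depth is unknown and no interval was computed.

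Within a sample, peaks with 1 bp or more in common were joined into 1 region, which took the value and summit of its highest peak, on chromosomes 1 to 19 and X. Regions of the replicates with 1 bp or more in common formed a shared region, whose ends are those of their union. Starts, introns and gene bodies came from GENCODE M21. A start was open where a shared region lay within 500 bp. Copies were sought with BLAST 2.17.0. Scripts used Python 3.11.15, numpy 2.4.6 and pandas 2.3.3 and were tested on simulated data. The 8 genes and all gene lists (ligands and co-receptors, signalling, other stem cell markers, markers of megakaryocytes, mast cells, endothelial and dendritic or early lymphoid cells, fibrinogen receptor and progenitor factor genes) were chosen with earlier results of these data known. All 8 genes were named, with their 3 strongest regions, strongest distal region and region at the start; from the lists, at most the 3 highest and the genes without a region. Some genes of the lists are not reported here by name. Ligands of the receptors were named beside them. Sequences are from the GRCm38.p6 RefSeq genome. With 1 group, no test was made. Alternatives were other lists, a 4-fold minimum, 50% reciprocal overlap, other windows, −log10 p, other motif settings and each replicate left out.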

Additional observations from a re-analysis of the deposited data

How the results depend on the processing

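Of the 8 genes, 5 had an open start with the replicated and conservative lists of the series, with peaks of at least 4-fold, with a 1 kb limit and without either replicate. It was 4 with the IDR lists of each sample (without Procr), with 50% reciprocal overlap (without Kit) and with the 5′ end as the only start (without Fgd5). The cause was not tested.

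The total of 74 shared regions became 105 with the replicated list, 109 within 100 kb, 60 with the conservative list, 63 with peaks of at least 4-fold, 84 or 87 with a replicate left out, 38 with the IDR lists, 44 within 20 kb, 23 in gene bodies and 37 where the nearest coding start was that of the gene. The median per gene, 9, became 5, 5, 2 and 4 under the last 4 of these settings. The median of the highest fold enrichments, 14.6, became 15.1 with the IDR lists and with peaks of at least 4-fold. It was 15.8 with the replicated list, 16.3 with the conservative list, 11.4 within 20 kb and 14.9 within 100 kb. In gene bodies it was 8.26, by nearest start 9.56, and with a replicate left out 14.5 to 14.6. Tek had no region with the IDR lists, the conservative list or the 4-fold minimum, so these 3 medians leave it out. Ly6a had none in its gene body and is left out there. With the 4-fold minimum, the highest value of every other gene was unchanged. The replicated and conservative lists give fold enrichments of pooled samples, here and below, not means of the replicates. The median fold enrichment, 7.34, became 9.93 with the IDR lists, 6.39 with the replicated list, 8.98 with the conservative list, 8.26 with peaks of at least 4-fold, 7.59 within 20 kb, 7.17 within 100 kb, 7.59 in gene bodies and 6.99 by nearest start, and 6.66 to 6.87 with a replicate left out. In −log10 p the 2 medians were 84.4 and 24.9, on another scale. The share of distal regions with a GATA motif, 16.7%, beside 19.3% of all distal regions, became 8.33% beside 17.0% with the IDR lists, 13.8% beside 20.5% with the replicated list, 14.6% beside 18.4% with the conservative list and 14.0% beside 19.1% with peaks of at least 4-fold. It was 7.41% beside 8.92% within 50 bp, 33.3% beside 30.2% within 150 bp and 7.41% beside 9.27% for AGATAA.

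No paired analysis was possible because there is 1 group. Depth is unknown, so a region missing from a list is one not detected, and 2 samples under 1 donor record give no test. The ratio between replicates has no value under pooled lists or with a replicate left out.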

Other observations

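The replicated list called on pooled samples added 15 regions to the 8 windows that were in neither replicate's own list as a shared or single region. Kit had 6 of them, Fgd5 3, Cd34 and Procr 2 each, and Flt3 and Slamf1 1 each, while Tek and Ly6a had none. Those of Kit had fold enrichments of 2.82 to 4.32 and lay 47.7 kb and 8.14 kb upstream, 17.4, 26.5 and 49.5 kb inside the gene and 102 kb from the 5′ end. In that list Kit had 17 regions and Flt3 25, against 9 and 16 shared ones, and Tek stayed at 1.

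Of the neighbours that were the nearest coding start of a region, some were open at a start. They were Edem2 (17.5 ± 1.24), Pan3 (9.91 ± 0.581), Ly6e (9.23 ± 0.291), Nr2c2 (12.9 ± 0.0414), Cd84 (6.77 ± 0.646) and Mmp24 (6.48 ± 1.62). Urad, Ly6i and Cdx2 were not. The regions closest to a start of Urad and of Ly6i were 1120 bp and 803 bp away, and the region assigned to Cdx2 had its summit 13.9 kb away. The rule of 500 bp was met by 59.8% of all protein-coding genes. In these windows the strongest region of Procr was at the start of Edem2. The strongest of Fgd5, Slamf1 and Ly6a had a neighbour's start as the nearest coding start.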
